A study of Mus musculus with 10 samples.

Results

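The proteasome subunit genes were examined in CUT&RUN data for IKZF2, an Ikaros-family DNA-binding protein also called Helios, in a mouse leukaemia line. Members were chosen by name alone: autosomal protein-coding genes whose symbol starts with Psma, Psmb, Psmc, Psmd, Psme, Psmf or Psmg, which gave 50 of 21887 protein-coding genes. Of these, 48 belong to the proteasome or its helpers, and the other 2 (Psmc3ip, a factor of meiotic recombination, and Psme3ip1, named as a partner of Psme3) only share the prefix. These 2 were listed as a group of their own but count among the members in the totals below.

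The proteasome is the protease that degrades ubiquitin-tagged proteins. Its core particle is a barrel of stacked alpha and beta rings, in which some beta subunits cut the substrate. A regulatory particle caps the barrel, where ATPases unfold the substrate and non-ATPase subunits bind and remove ubiquitin. Interferon induces replacement catalytic subunits and an activator ring that together form the immunoproteasome, and dedicated chaperones assemble the rings. Most subunit genes are transcribed in nearly all cells, and drugs that block the proteasome are used against some blood cancers.

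All samples came from RN2 cells, a C57BL/6 leukaemia line that carries MLL-AF9 and NRASG12D, transduced with a retrovirus for murine IKZF2 and RFP, then sorted and kept in culture for 2 weeks. Every sample therefore overexpressed the factor, and cells at native IKZF2 levels were not part of the labelled design. An antibody against IKZF2 was used in 6 samples (3 libraries, each with 2 technical replicates) and a control rabbit antibody in 4 samples (2 libraries). The control samples were not analysed here, so how much of any signal depends on the antibody was not tested, and values are compared only between genes of the same libraries. CUT&RUN releases the DNA around an antibody-bound protein and does not measure expression, so the cell type was not checked by markers.

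The deposited files count reads in 151133 regions, most of them close to 100 bp wide (median 109 bp). Technical replicate 1 held 273896 to 326440 reads in regions and technical replicate 2 held 1296355 to 1755015, which was 83.1% of all reads. A gene's signal was taken from the strongest region within 5 kb of an end of the gene, in CPM (reads per 1000000 of the library's reads in regions) per kb of region, with technical replicates summed. Means and SDs are over the 3 libraries. Since no label ties a library to its own culture, this SD may be technical. At proteasome genes the strongest region held 23 to 210 reads over all libraries (median 54), so single genes were measured coarsely.

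Signal was found at most proteasome genes, and 7 of the 11 strongest belonged to the regulatory particle. A region was present at 44 of 50 members (88.0%), against 73.7% of all protein-coding genes. The median signal of these 44 was 67.3, against 58.8 for all 16133 genes with a region. In the top 10% of genes, at or above 101.8 CPM per kb, stood 11 of the 44, where the same threshold takes 10.0% of genes with a region and 7.37% of all genes. Without the 2 genes that share only the prefix it was 11 of 43 (25.6%), with a median of 67.3. By group, these 11 were 7 of 17 regulatory particle genes, 2 of 6 assembly factors, 1 of 12 core particle genes with a region and 1 of 6 immunoproteasome genes with a region. The count rested in part on library 2: without it 7 members were in the top 10%, without library 1 there were 9, and without library 3 there were 11. Of the regulatory particle genes 5 were in the top 10% without library 2, and 4 when technical replicate 1 was used alone or CPM was summed over the window. The median signal was 75.6 for the regulatory particle, 79.7 for the assembly factors and 71.4 for the core particle. It was lower than the median of all genes for the immunoproteasome (53.1) and for the other activators and inhibitor (56.2). No test was made between groups.

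**Figure D1:**
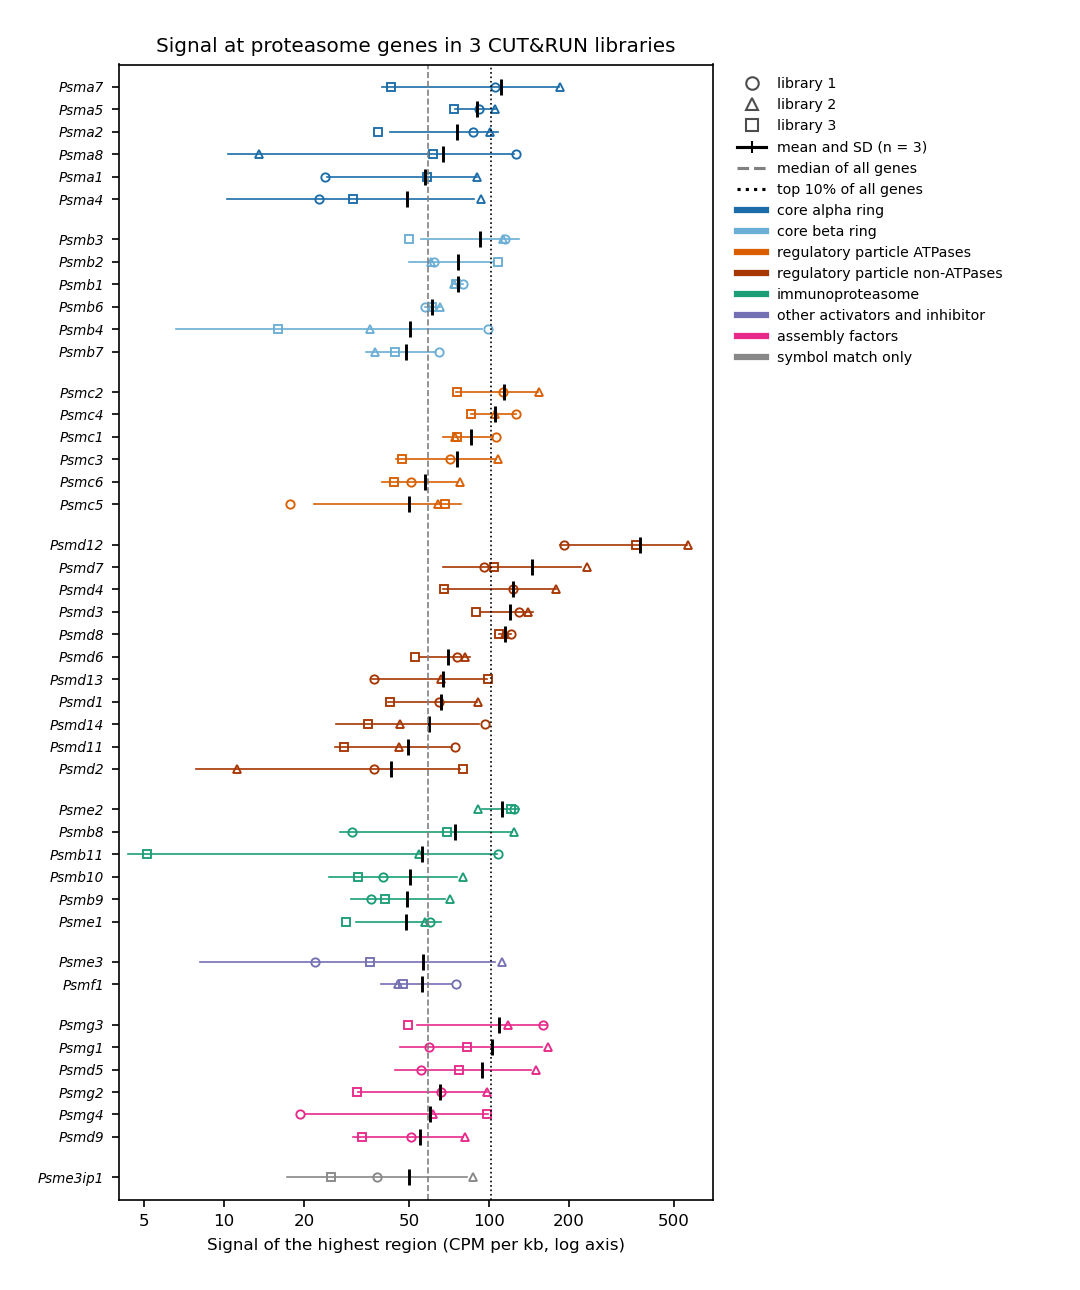
Signal of the strongest region at each of the 44 proteasome-prefix genes that have one (CPM per kb, log axis), with 1 open symbol per library, the mean as a black tick and the SD as a line (n = 3), grouped by role. The dashed line is the median of all genes (58.8) and the dotted line the entry to the top 10% by mean (101.8): all 3 libraries of Psmd12 and of Psmd8 stand to the right of the dotted line, while most other genes straddle one of the lines.

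The highest single values were those of non-ATPase subunits of the regulatory particle. The median of this group, 69.8, was below that of the ATPases (80.5) and of the assembly factors (79.7). Psmd12, a subunit of the lid, the part that holds the deubiquitinating enzyme, stood at 192, 566 and 358 CPM per kb in libraries 1, 2 and 3 (372 ± 187, SD, n = 3), rank 3 among all 16133 genes with a region. Psmd7, the lid subunit that pairs with the deubiquitinase Psmd14, stood at 95.7, 234 and 104 (145 ± 77.7). Psmd12 was above Psmd7 in each of the 3 libraries, although its lowest library was below the highest library of Psmd7. The ubiquitin receptor Psmd4 stood at 123, 179 and 67.4 (123 ± 55.6). The lid subunit Psmd3 stood at 129.8, 140.4 and 89.5 (119.9 ± 26.8). In each of these genes library 2 was the highest. The order of the genes depended on the division by width, and rank 3 of Psmd12 holds for signal per kb. The Psmd12 region was 90 bp wide, the smallest width of any region. In CPM not divided by width Psmd12 stood at 33.5, below Psmd8 at 39.6 and Psmd3 at 38.6. Psmd7 then stood at 15.3 and Psmd4 at 13.1.

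Psmd8, another lid subunit, had the smallest SD between libraries of the strong members. It stood at 121, 115 and 109 (115 ± 6.27), with 70, 62 and 78 reads, the largest number of reads of any member (210 in all). The coefficient of variation between libraries was 5.45% for Psmd8, against a median of 45.8% over the members and 42.7% over all genes with a region. At these read numbers so small a spread does not show precision. In technical replicate 1 Psmd8 was not in the top 10%. Psmd3, Psmd4, Psmd7 and Psmd8 each lay in the top 10% in 2 of 3 libraries, and Psmd12 in 3 of 3. Their means, from 115 to 145 without Psmd12, differed by less than the SD of Psmd7 or Psmd4.

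The other 6 non-ATPase genes were outside the top 10%. They were Psmd6 (69.8 ± 15.3), Psmd13 (67.2 ± 31.1), Psmd1 (65.9 ± 24.2), the deubiquitinase gene Psmd14 (59.1 ± 32.7), Psmd11 (49.4 ± 23.1) and Psmd2 (42.6 ± 34.8). Psmd1 and Psmd2 encode the largest subunits, which form the scaffold of the base. Psmd2 was the lowest of all 44 members, at 36.7, 11.2 and 80.1 in libraries 1, 2 and 3, from 28 reads in all, and library 2 was here the lowest. Its range overlapped that of every other non-ATPase gene outside the top 10%.

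All 6 ATPase genes of the regulatory particle had a region, and Psmc2 and Psmc4 were in the top 10%. Psmc2 stood at 113, 154 and 75.9 in libraries 1, 2 and 3 (114 ± 39.2). Psmc4 stood at 126, 106 and 85.2 (106 ± 20.5). The others were Psmc1 (85.4 ± 18.1), Psmc3 (75.6 ± 30.9), Psmc6 (57.4 ± 18) and Psmc5, the lowest, at 17.7, 64.1 and 68.2 (49.98 ± 28.1). These ATPases form a single ring in which every copy is required, and their mean signal spanned from Psmc5 below the median of all genes to Psmc2 in the top 10%.

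The core particle had 1 gene in the top 10%, Psma7 of the alpha ring. Psma7 stood at 106, 186 and 42.5 (111 ± 71.9), so library 3 lay below the median of all genes. The other alpha ring genes were Psma5 (90.2 ± 15.6), Psma2 (75.5 ± 33.1), the testis form Psma8 (67.3 ± 57.0), Psma1 (57.5 ± 33.0) and Psma4, the lowest, at 22.8, 93.3 and 30.6 (48.9 ± 38.6). No region was counted near Psma3 or Psma6. Alpha ring genes with a region had a median of 71.4 and beta ring genes 68.7, close to each other and to the median of the members.

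In the beta ring the signal was moderate and for some genes close between libraries. Psmb3 led at 115, 113 and 49.7 (92.4 ± 37.0). Psmb1 stood at 79.9, 73.9 and 75.1 (76.3 ± 3.20), and Psmb6, which encodes the caspase-like catalytic subunit, stood at 57.5, 65.2 and 60.8 (61.2 ± 3.86). These close values came from few reads, 30, 26 and 35 at Psmb1 and 16, 17 and 21 at Psmb6, so they do not show precision. The signal in technical replicates 1 and 2 lay further apart, at 128.8 and 65.7 for Psmb1 and 91.7 and 54.6 for Psmb6. Psmb2 (76.6 ± 26.9) and Psmb4 (50.3 ± 43.7) varied more, and Psmb7, the trypsin-like catalytic subunit, was lowest at 64.7, 37.1 and 44.0 (48.6 ± 14.3). No region was counted near Psmb5, the gene of the chymotrypsin-like subunit.

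The immunoproteasome genes had a median of 53.1, below the 58.8 of all genes, and 1 of 6 with a region was in the top 10%. That gene was Psme2, a subunit of the interferon-induced activator ring, at 124, 91.0 and 121 (112 ± 18.2). Its partner Psme1, which lies close by on chromosome 14, was the lowest of the group at 59.7, 57.3 and 28.8 (48.6 ± 17.2), and no library of Psme1 reached the lowest library of Psme2. The inducible catalytic subunits were at 74.6 ± 47.1 (Psmb8), 49.2 ± 19.0 (Psmb9) and 50.4 ± 25.6 (Psmb10), and the thymic subunit Psmb11 at 55.8 ± 51.4. Psmb8 and Psmb9 both lie beside Tap1, the gene of the peptide transporter for antigen presentation, on chromosome 17 and drew their values from different regions that are also within reach of Tap1. Psme2b, a second Psme2-like gene, had no region.

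Among the remaining activators, Psme3 of the nuclear activator stood at 22.1, 112 and 35.6 (56.6 ± 48.5). The inhibitor gene Psmf1 stood at 75.0, 45.2 and 47.3 (55.8 ± 16.6). Psme4 had no region, and neither of the others reached the median of all genes.

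Of the 6 assembly factors 2 were in the top 10%. Psmg3, a chaperone of the alpha ring, stood at 160.0, 118 and 49.5 (109 ± 55.8). Psmg1, whose product pairs with Psmg2, stood at 59.2, 166 and 82.2 (103 ± 56.4), the member just inside the top 10%. The member just outside it was Psmd5, a chaperone of the regulatory particle base, at 55.4, 151 and 76.8 (94.4 ± 50.2). Psmg2 (65.1 ± 33.2), Psmg4 (59.7 ± 39.5) and Psmd9 (55.1 at its mean, with 50.8, 81.3 and 33.2 in the libraries, SD 24.3) followed. The values of Psmg1 and Psmd5 overlapped across libraries, with library 2 above the others in both. Psmg1 was the higher in each library. Among the genes that share only the prefix, Psme3ip1 stood at 50.04 ± 32.7 and Psmc3ip had no region.

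**Figure D2:**
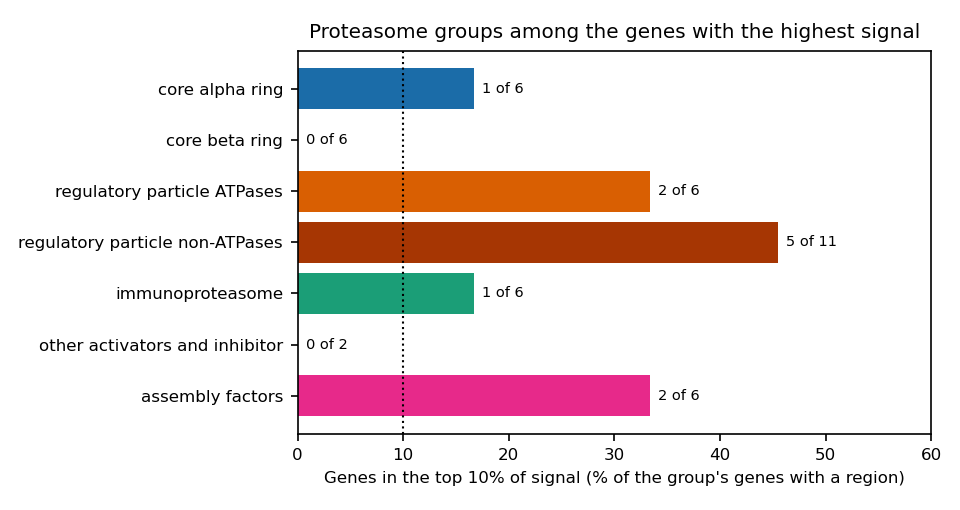
Share of each group's genes with a region that were in the top 10% of all genes by signal (percent), with the counts printed beside the bars and a dotted line at the 10.0% of all genes. The regulatory particle groups (5 of 11 and 2 of 6) and the assembly factors (2 of 6) reach beyond the line, as do the alpha ring and the immunoproteasome (1 of 6 each), and the beta ring has 0 of 6; the groups are small and no test was made between them.

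Within single libraries the members stood out in libraries 1 and 2 more than in library 3. Ranked by the signal of the same regions in 1 library, 10, 8 and 5 of the 44 members were in the top 10% of libraries 1, 2 and 3. Psmd12 reached the top 10% of every library, as did 1.87% of all genes with a region. In 2 or 3 libraries there were 7 of 44 members (15.9%), against 6.28% of all genes with a region, and 6 of these 7 belonged to the regulatory particle. The seventh was Psme2. The median of the members was 72.8, 88.6 and 55.3 in libraries 1, 2 and 3, against 60.8, 66.3 and 58.3 for all genes. Library 2 was the highest library for 24 of 44 members (54.5%) and 41.7% of all genes, and library 3 for 5 members (11.4%) and 27.5% of all genes.

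Taking the strongest of several regions favours values that are high by counting error, so the region was also chosen in 2 libraries and read in the library left out, a step added after the data were seen. Read this way, 10 members were in the top 10% of library 1, 9 in that of library 2 and 4 in that of library 3, where 10.0% of all genes stood each time. The median of the members was 63.3, 76.0 and 49.6, against 50.8, 52.0 and 51.1 for all genes. In library 3 the members thus stood at the level of other genes, with Psmb2, Psmd7, Psmd8 and Psmd12 in its top 10%. The number of regions to choose from was similar at members and at all genes (mean 2.34 against 2.31).

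Summed over all 103 regions near members, the signal differed more between libraries than between technical replicates, which lay furthest apart in library 3. These regions took 954, 1090 and 839 CPM in libraries 1, 2 and 3 (961 ± 125, SD, n = 3), and scaled in the same way they make up 753 per 1000000 bases of all regions. Technical replicates 1 and 2 gave 944 and 956 CPM in library 1, 1088.0 and 1090 in library 2, and 778 and 851 in library 3. Library 2 was the highest and library 3 the lowest in both technical replicates.

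The strongest region lay close to an annotated start more often at proteasome genes than over all genes. A RefSeq table of promoters (GRCm38.p6, whose coordinates are those of mm10) gave strand and start for 42 of the 50 members. It had no entry for Psma8, Psmb1, Psmb2, Psmb7, Psmc3, Psmd3, Psmd7 and Psmg2. Of the 36 members with both an entry and a region, 20 (55.6%) had their strongest region within 100 bp of a start, against 24.4% of 12935 genes. By group it was 10 of 14 regulatory particle genes, 4 of 8 core particle genes, 3 of 6 immunoproteasome genes and 2 of 5 assembly factors. The region covered the start itself in 14 of the 36 (38.9%), against 16.8% of genes. Among members in the top 10% it lay within 100 bp of a start in 8 of 9, the exception being Psmg3 at 3926 bp, and among the other members in 12 of 27. Among all genes of the top 10% the share was 54.0% (716 of 1327).

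**Figure D3:**
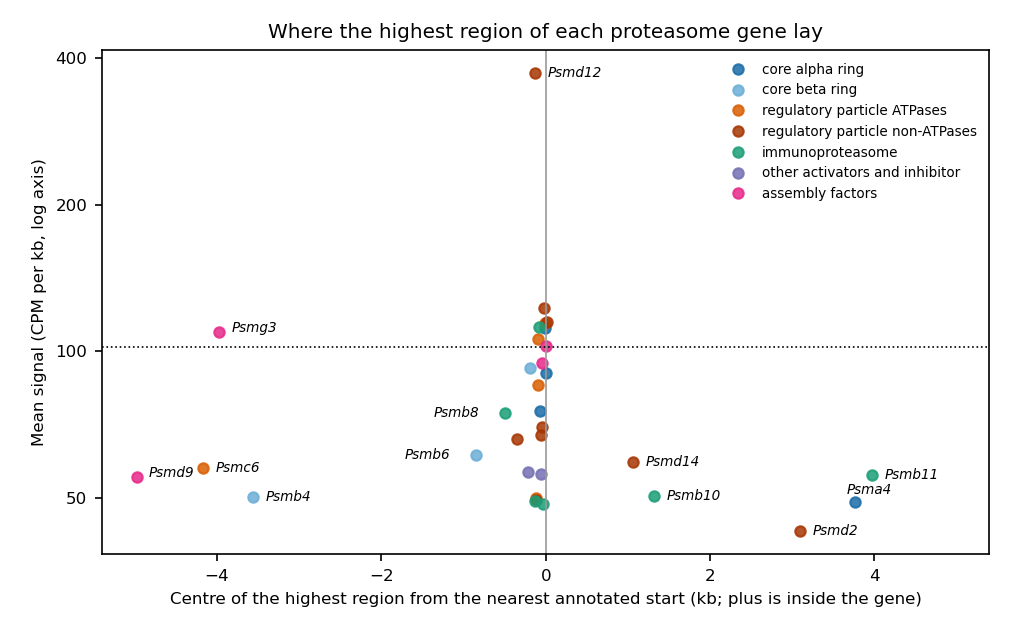
Distance of the centre of the strongest region from the nearest annotated start (kb, plus is inside the gene) against its mean signal (CPM per kb, log axis) for 33 of the 36 members with a start in the promoter table; 3 lay beyond 5 kb of that start. The dotted line is the entry to the top 10%: all genes above it except Psmg3 stand in the narrow column at the start, which also holds weaker members down to 48.6.

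Of the members without a promoter entry, Psmd7 had its region on chromosome 8 at 107588433 to 107588539 across the higher end of the gene span (107580380 to 107588482). Psmd3 had its region on chromosome 11 at 98682239 to 98682561 across the lower end of its span (98682554 to 98695978). Psmb2 and Psmc3 also had regions across a gene end. Psmc2 had its region, on chromosome 5 at 21786688 to 21786783, 1413 bp inside the span but across a second annotated start.

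Wide regions and shared regions were also frequent. The strongest region was 200 bp or wider in 11 of 44 members (25.0%), against 14.9% of genes, and these included Psmd8 (344 bp), Psmd3 (322 bp), Psmc4 (265 bp) and Psme2 (231 bp). It was within reach of another protein-coding gene in 22 of 44 members (50%), against 37.0% of genes. Such pairs were Psma7 with Ss18l1, Psmg1 with Brwd1, Psmd8 with Catsperg1, Psme2 with Rnf31, Psmd3 with Gsdma and Psmc2 with Dnajc2. For these members the signal cannot be given to one gene rather than its neighbour. Psmd12, Psmd7, Psmd4, Psmc4 and Psmg3, also in the top 10%, shared their region with no other gene.

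The stretches upstream of 6 strong members are shown because their counted regions lie on or within 100 bp of the start. Psma7 and Psmc2 also met this condition but were left out. The Psmc2 start lies inside the gene span, and at Psma7 the span of another gene comes within 100 bp upstream of the start. The bases shown and the counted region overlap only in part. Each line gives the 200 bases that end just before the annotated start, 5′ to 3′ on the strand of the gene, from RefSeq (GRCm38.p6). Capitals mark a match on either strand to GGGAA (the core of the motif bound by Ikaros family factors), CCGGAAG (bound by ETS factors), CCAAT (bound by NF-Y) or TGACNNNGC (an antioxidant response element, the type of site through which NRF1, encoded by Nfe2l1, raises proteasome genes).
Psmd12, chr11:107479328-107479527, plus strand: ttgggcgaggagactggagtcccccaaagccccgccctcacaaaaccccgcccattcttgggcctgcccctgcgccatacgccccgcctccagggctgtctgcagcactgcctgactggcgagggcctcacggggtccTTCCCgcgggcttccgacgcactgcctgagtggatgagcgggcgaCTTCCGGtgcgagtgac
Psmd4, chr3:95042615-95042814, minus strand: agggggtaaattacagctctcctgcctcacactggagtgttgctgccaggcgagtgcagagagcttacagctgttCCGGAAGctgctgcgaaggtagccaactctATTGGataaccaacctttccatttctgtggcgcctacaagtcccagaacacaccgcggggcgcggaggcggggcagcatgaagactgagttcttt
Psmd8, chr7:29180674-29180873, minus strand: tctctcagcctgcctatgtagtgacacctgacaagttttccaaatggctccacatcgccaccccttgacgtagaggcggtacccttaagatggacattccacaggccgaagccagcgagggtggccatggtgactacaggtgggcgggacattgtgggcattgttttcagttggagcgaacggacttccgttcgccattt
Psme2, chr14:55591102-55591301, minus strand: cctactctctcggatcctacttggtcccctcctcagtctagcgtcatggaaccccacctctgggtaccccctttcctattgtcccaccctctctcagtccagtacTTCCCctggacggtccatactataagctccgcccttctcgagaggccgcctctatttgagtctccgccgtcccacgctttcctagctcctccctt
Psmc4, chr7:28050093-28050292, minus strand: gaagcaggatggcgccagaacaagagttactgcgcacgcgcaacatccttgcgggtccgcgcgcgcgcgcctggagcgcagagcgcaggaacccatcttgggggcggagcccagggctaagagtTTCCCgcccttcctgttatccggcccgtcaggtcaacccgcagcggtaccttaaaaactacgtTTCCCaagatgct
Psmg1, chr16:95990961-95991160, minus strand: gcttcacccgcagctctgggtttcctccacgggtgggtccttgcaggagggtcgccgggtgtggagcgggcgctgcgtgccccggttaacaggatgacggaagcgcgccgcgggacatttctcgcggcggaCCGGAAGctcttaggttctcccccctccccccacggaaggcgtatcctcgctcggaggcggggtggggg

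Counted from the start, with the first transcribed base as 0, the region ran from -172 to -82 at Psmd12, from -76 to 31 at Psmd4, from -161 to 183 at Psmd8, from -192 to 39 at Psme2, from -223 to 42 at Psmc4 and from -52 to 59 at Psmg1. The Psmd12 region thus lay wholly upstream of the start, while the others covered it. Whether deposited region starts count from 0 or 1 is not stated, so these positions may be off by 1 base. At Psmd12 the GGGAA match on the opposite strand began at -62 and the CCGGAAG match at -17, both outside the region. The CCGGAAG matches at Psmd4 (-125 to -119) and at Psmg1 (-69 to -63) also lay outside the regions of these genes. At Psmc4 the GGGAA matches at -76 and -13 lay inside the region, and at Psme2 the one at -95 did. Psmd8 had no marked match in the bases shown.

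Across all promoter windows (300 bases, 250 before the start and 50 after) the GGGAA core was no more frequent at members than elsewhere. It was found on either strand in 27 of 46 windows of 42 members (58.7%), against 63.0% of 21263 windows of protein-coding genes, and TGGGAA, which contains it, in 23.9% against 24.5%. CCGGAAG was found in 17 of 46 windows (37.0%), against 11.6%. Among them were windows of the strong members Psmd12, Psmd4, Psmc2, Psmg1 and Psmg3. Windows of weaker members also held it, namely Psmc1, Psmc6, Psmd6, Psmd11, Psmd13, Psme3 and Psmd2, the lowest member by signal. So did windows of Psma6 and Psme4, which had no region. Whether the motif goes with signal was not tested. The count also includes windows of Psmc3ip and Psme3ip1, which share only the prefix. At Psmd12, Psmd4 and Psmg1 the match lay outside the counted region. CCAAT stood in 32.6% against 38.2%. TGACNNNGC stood in 6 of 46 windows (13.04%) against 12.98%, and the looser TGANNNNGC, which includes it, in 58.7% against 41.7%. The member windows had a median GC content of 58.2% against 56.3% and a median of 19 CpG dinucleotides against 13. A match describes the letters and not a bound site.

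Technical replicates of a library were compared next, since a region that differs between technical replicates of the same CUT&RUN is a less certain value. Over all 27452 regions with enough reads, edgeR's quasi-likelihood test, blocked by library, called 0.259% at an adjusted p under 0.05, and 0.138% were called higher in technical replicate 2. Of the 38 tested regions near members 1 was called, the region at Psmd12, which DESeq2 also called, where it called 0.204% of all regions. In libraries 1, 2 and 3 it held 0, 2 and 0 reads in the shallower technical replicate 1, but 29, 78 and 67 in the deeper one, a log2 difference of 4.74 ± 0.79 (SE; edgeR adjusted p = 2.57e-06). Its signal was 27.0 in technical replicate 1 and 442 in technical replicate 2, so the rank of Psmd12 among all genes came from the deeper replicate alone. In leave-one-out fits the difference stayed positive but was no longer called, at log2 differences of 4.30 without library 1 (edgeR adjusted p = 0.0758), 7.93 without library 2 (edgeR adjusted p = 0.852) and 4.09 without library 3 (edgeR adjusted p = 0.634).

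No other member region was called. The next was the region at Psme2, whose reads numbered 6, 2 and 0 in the shallower and 42, 31 and 58 in the deeper replicate (log2 difference 2.45 ± 0.66, SE; edgeR adjusted p = 0.074). Psmc4 (4, 12 and 2 against 52, 32 and 45 reads) had a log2 difference of 1.31 ± 0.56 and Psmd8 (10 in each library against 60, 52 and 68) one of 0.93 ± 0.44, with edgeR adjusted p-values of 0.503 and 0.63. Psmd3 (16, 22 and 12 against 54, 49 and 48 reads) had a log2 difference of -0.02 ± 0.40, below the median of 0.41 over all regions tested, and of -0.39 with total reads in place of TMM scaling. At an unadjusted p under 0.05 stood 5 of 38 member regions, against 6.86% of all regions tested.

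Whether the member regions lay higher in technical replicate 2 than other regions depended on the regions used, and was not tested. The median log2 difference was 0.82 over the 38 member regions and 0.41 over all regions tested, and 25 of 38 were above the latter. With total reads in place of TMM scaling the medians were 0.44 and 0.05 and the count was again 25. DESeq2 gave medians of 0.62 and 0.29. With no filter on low counts the medians were level, at 0.84 for 103 member regions and 0.83 for all, and without library 1, 11 of 22 member regions were above the median of all.

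**Figure D4:**
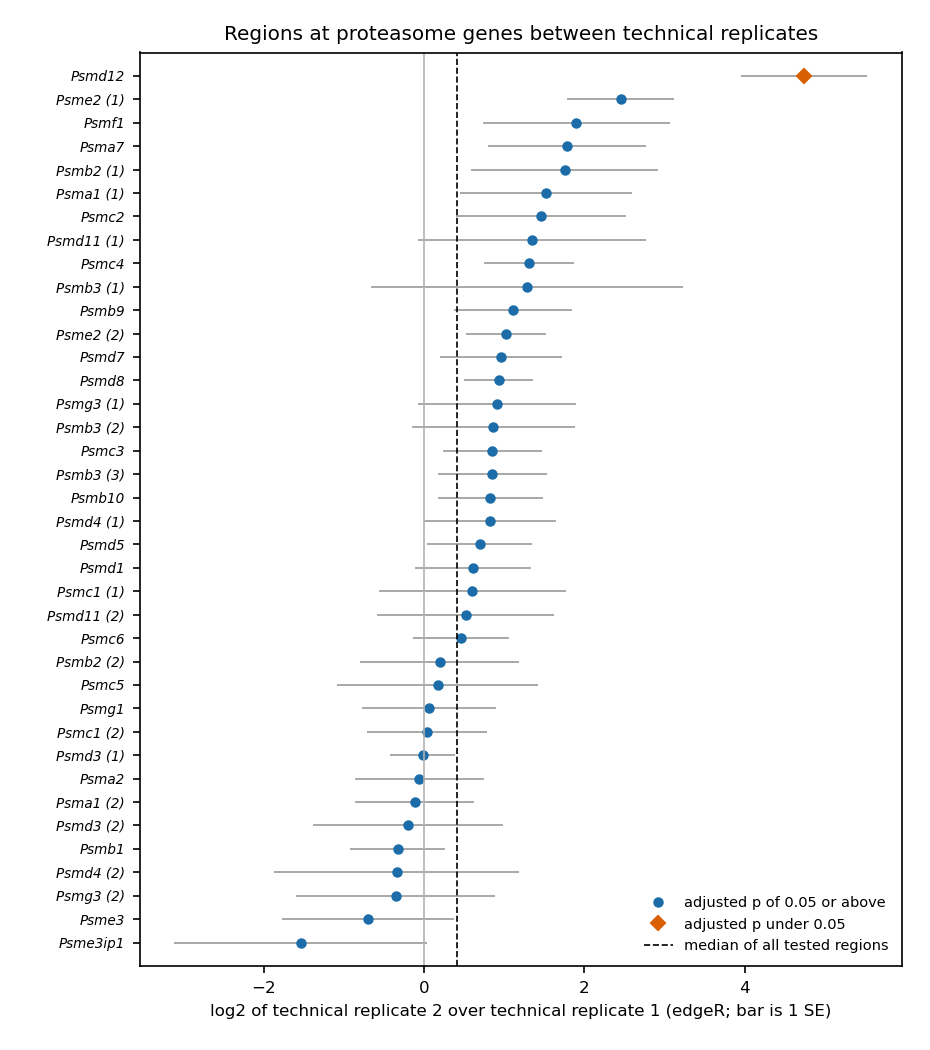
Log2 of technical replicate 2 over technical replicate 1 for the 38 tested regions near proteasome genes, with 1 SE from edgeR, numbered where a gene has several. The dashed line is the median of all tested regions (0.41): Psmd12 at 4.74 is the single called region, and the bars of most others span the dashed line.

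Of the 11 members in the top 10%, 4 (Psmd3, Psmd4, Psmd7 and Psmg1) were also there when the same regions were ranked in technical replicate 1, and 10 (all but Psmg1) in technical replicate 2. Over all genes of the top 10% these shares were 45.9% and 90.0%. Technical replicate 2 holds most reads, so the sums follow it.

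At the strong members the signal in technical replicates 1 and 2 was 176 and 108 for Psmd3, 133 and 120.3 for Psmd4, 132 and 147 for Psmd7, and 97.4 and 119 for Psmd8. It was 68.3 and 124 for Psmc2, 79.6 and 111 for Psmc4, 39.4 and 126 for Psme2, and 62.8 and 121 for Psma7. For the assembly factors it was 108 and 109 for Psmg3, 146 and 93.0 for Psmg1, and 93.2 and 94.8 for Psmd5. The signal of Psmg3 and Psmd5 was close in the replicates, that of Psmd3 was higher in technical replicate 1, and Psme2, like Psmd12, rested on the deeper one.

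For the lowest genes of the groups, which were chosen by the sum of both replicates, the replicates were as follows. The signal in technical replicates 1 and 2 was 29.7 and 52.7 for Psma4, 28.7 and 52.5 for Psmb7, 52.8 and 49.0 for Psmc5, 35.8 and 44.4 for Psmd2, 46.6 and 48.8 for Psme1, and 24.8 and 61.3 for Psmd9. Psmf1 had 36.5 and 59.5, and Psme3ip1, with 132 and 32.4, was in the top 10% of technical replicate 1. Their regions lay across a start at Psme1 and Psmf1 and 38 bp from it at Psmc5, but 3682 bp away at Psma4, 3039 bp at Psmd2 and 4885 bp at Psmd9, and 2211 bp from a gene end at Psmb7. Psmd9 also had a region across its start, at 53.2 against 55.1 for the one used. Psma4 had one 114 bp from a gene end, at 42.9 against 48.9. These differences were smaller than the SDs.

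Between the 3 libraries no member region was called. Fitted with a term for the technical replicate, edgeR found 0.0146% of 27452 regions to differ and 0 of 38 near members (DESeq2 also 0), and 1 of the 38, a region near Psmb3, had an unadjusted p under 0.05, against 4.35% of all regions. The error in this test is the spread of technical replicates within a library. At these read numbers the differences described above, such as 192 against 566 at Psmd12, were not distinguished from that spread.

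Genes that work with the proteasome, from a list of 27 of which 26 were in the annotation, were compared last. A region was present at 24 of 26, their median signal was 73.0, and 3 of 24 (12.5%) were in the top 10%, close to the 10.0% of all genes. Among these were Nfe2l2 (139 ± 65.1), which encodes the stress factor NRF2, and Akirin2 (132 ± 63.1), whose product carries proteasomes into the nucleus. Nfe2l1, the transcriptional activator of proteasome genes, was picked out after its values were seen and stood at 95.6 ± 23.4, below the top 10%. Nploc4 and Ube3c had no region.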

How the data were processed

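CUT&RUN reads of 6 anti-IKZF2 samples were analysed. The deposited tables give raw read counts per region over one region set, per the file headers. The submitters' processing notes list Bowtie2 2.3.3.1, MACS2 and mm10, without roles; peak threshold, counting tool and samples used for calling: not given in the sources used here. Most counts of 10 or more were even in technical replicate 1 (84.7 to 87.4%) but fewer in the deeper one (58.0 to 61.2%), and the part of this in the results was not tested.

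Gene spans came from a RefSeq table of GRCm38.p6. Members and lists were chosen with earlier results of these data known. Named in full by rule: the 12 highest members, those called by edgeR or in the top 10% in all libraries, and the lowest of each group. Psmd10 is X-linked and outside the rule. Genes in the top 10% were counted without a test. Some genes of the second list are not reported here by name.

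Region counts went into edgeR 4.0.16 under R 4.3.3 (filterByExpr, TMM, glmQLFit, glmQLFTest, Benjamini-Hochberg adjustment over all regions), with DESeq2 1.42.0 as an alternative, after a trial on simulated data. The labels make both technical replicates part of one CUT&RUN, hence the library block; p-values measure the spread between these samples only. Other steps used Python 3.11.15, numpy 2.4.6 and pandas 2.3.3.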

Additional observations from a re-analysis of the deposited data

How the results depend on the processing

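The number of members in the top 10% ranged from 4 to 11 over 15 alternatives, and their share was above that of all genes in each of the 15. It was 7 within 1 kb of a gene end (of 34 with a region), 4 on regions of 200 bp or wider (of 14 with a region) and 6 with CPM summed over the window, and the cause was not tested; the first of these and the 200 bp limit leave fewer members. Leaving out each library in turn gave 7 to 11 members, medians of 65.8 to 77.1 and 44 members with a region each time. The median of all genes was then 62.5 to 64.9, and without library 2 the members stood at 65.8 against 62.5. With the region read in library 3 after choice in the others, 4 members and a median of 49.6 were found (9.09% of members, against 10.0% of genes). In CPM not divided by width the median was 10.5, and summed over the window 19.2, on other scales. Without the division by width 8 members were in the top 10%, among them Psmd12, Psmd8 and Psmd3 but not Psmd7 or Psmd4. Psmd3 was in the top 10% under all 15 alternatives, Psmd8 under 14, Psmd12, Psmd7 and Psme2 under 12, and Psmg1 under 6. The strongest region was chosen anew under each alternative. Without the strongest 0.1% of regions, the region upstream of Psmd12 was itself removed, and another region of the gene gave 51.1. Technical replicate 1 alone gave 67.8, also from another region, where the region upstream of the start stood at 27.0.

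The count of regions called between technical replicates was 71, and 46 without a filter on low counts, 46 with no replicate block (9743 regions tested) and 0 to 18 when a library was left out, where 0 member regions were called. The region at Psmd12 was called under the 4 other alternatives, with DESeq2 at an adjusted p of 0.00229, and with no replicate block at 0.00927. The direction was the same under all 7. Between libraries the count was 4 regions, 0 of them near members, under each of 3 alternatives too; whether they were the same regions was not tested. Motif shares in windows around the regions were not run, since no genome was used here. Depth limits single genes: 23 to 210 reads set each value.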
